A study of Sus scrofa with 24 samples.

Results

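Dividing cells copy their DNA in S phase and share it between daughter cells in mitosis, and each step has its own set of genes. The genes described here were 40 such genes, taken by symbol from the 20674 genes of the deposited table: 19 act in DNA replication and the entry into S phase, and 21 act in mitosis. All 40 symbols were found, and all 40 gene identifiers matched a RefSeq gene of the same span on Sscrofa11.1. Rows were taken by symbol with no cut on level or test, but the symbols were chosen with earlier results of these data known.

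Replication starts when the MCM proteins, loaded on DNA with the help of CDC6, are joined by CDC45 and the GINS proteins to form the active helicase that unwinds the double strand. PCNA then clamps the polymerases to the template, while TYMS and the RRM1 and RRM2 subunits of ribonucleotide reductase supply nucleotides, and E2F1, the E cyclins and CDK2 set the start. In mitosis CDK1 with the B cyclins drives entry, condensin (SMC2 and SMC4) and TOP2A shape the chromosomes, kinetochore and checkpoint proteins hold them until they are attached, and CDC20 and UBE2C end the phase by directing protein breakdown. In the gut, division takes place mainly in the crypts of the epithelium and in the germinal centres of lymphoid follicles, which are large in the Peyer's patches of the small intestine.

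The libraries were poly(A) RNA-seq libraries from the ileum and colon of pregnant sows (Sus scrofa), all female, labelled with gestation day 114. Diets were given from breeding in a 2 by 2 design of crude fibre and N-carbamylglutamate (NCG), an analogue of N-acetylglutamate that activates the first enzyme of the urea cycle. HN sows received 7.46% crude fibre with 0.05% NCG, HF sows 7.46% crude fibre without NCG, LN sows 3.73% crude fibre with 0.05% NCG (HN and LN are H+N and L+N in the labels), and LF sows 3.73% crude fibre without NCG. The trial had 100 sows per diet, and 3 libraries per tissue and diet were analysed, 24 in all. No label states whether a group's libraries were taken from separate sows, or whether ileum and colon libraries share sows, so p-values measure the spread between these libraries. They give no age, parity or breed.

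Total counts ran between 11951729 and 19896941 per library, and no member was at 0 in any library. The lowest member count was 3, for CENPE in colon LF 2 (replicate 2 of the LF colon group), and 3 of the 960 member values were under 10. HOXD10, a regional gene of the hindgut, was at 14.1 to 121 CPM (counts scaled to a common library total) in the 12 colon libraries and at most 0.194 CPM in the 12 ileum libraries. FABP6, the bile acid binding protein of the ileal enterocyte, was at 827 CPM in ileum HN 2, 4262 in HF 2 and 8419 in LF 1. In the other 9 libraries labelled ileum it was between 0 and 38.0 CPM, so that these 9 largely lack a defining marker of their label. The same HN 2, HF 2 and LF 1 libraries had the highest summed germinal centre and B cell markers of the ileum (1717, 937 and 837 CPM, against 122 to 500 CPM in the other 9).

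Another 3 libraries stood apart by low levels of the cell cycle genes themselves. In ileum LN 3, 37 of the 40 members had their lowest CPM of the 12 ileum libraries, while 21.9% of all genes did. Its replication genes were a median 4.86-fold and its mitosis genes a median 8.71-fold below the median of the other 11 ileum libraries, up to 20.1-fold for MCM2 and 60.4-fold for CDC20. Colon LF 2 was the lowest of the 12 colon libraries for 23 members, beside 18.0% of all genes, with median folds of 4.999 (replication) and 14.1 (mitosis) below the other 11. Colon HN 1 was the lowest for 14 members, beside 22.4% of all genes, with median folds of 3.80 and 8.30. MKI67 was 29.5-fold below the other libraries' median in colon LF 2 and 25.1-fold below it in colon HN 1. The condensin gene SMC2 did not follow, at a fold of 0.75 in ileum LN 3 (above the median of the others) and of 1.03 in colon LF 2, nor did SMC4, at folds of 0.85 in ileum LN 3 and 0.46 in colon HN 1. In colon LF 2 SMC4 was 1.58-fold below the median of the others.

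Some marker lists were at an extreme in the 3 low libraries. Crypt stem cell markers were low in all 3, while epithelial, smooth muscle and adipocyte markers were not at an extreme in all 3. Colon HN 1 and colon LF 2 had summed epithelial markers of 352 and 171 CPM, against 3416 to 15779 CPM in the other 10 colon libraries. Their summed smooth muscle markers were 120199 and 127534 CPM, the highest of the 24. Their summed crypt stem cell markers were 493 and 517 CPM, against 1981 to 8384 CPM in the other 10 colon libraries. Ileum LN 3 had the lowest crypt stem cell markers of the ileum, 232 CPM against 658 to 3032 CPM in the others, with LGR5 at 0.19 CPM, and the highest adipocyte markers, 7364 CPM against 383 to 992 CPM. What part the tissue makeup of a library had in its cell cycle levels was not tested. In RNA from whole tissue, fewer dividing cells and less of these RNAs per cell cannot be told apart.

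**Figure D1:**
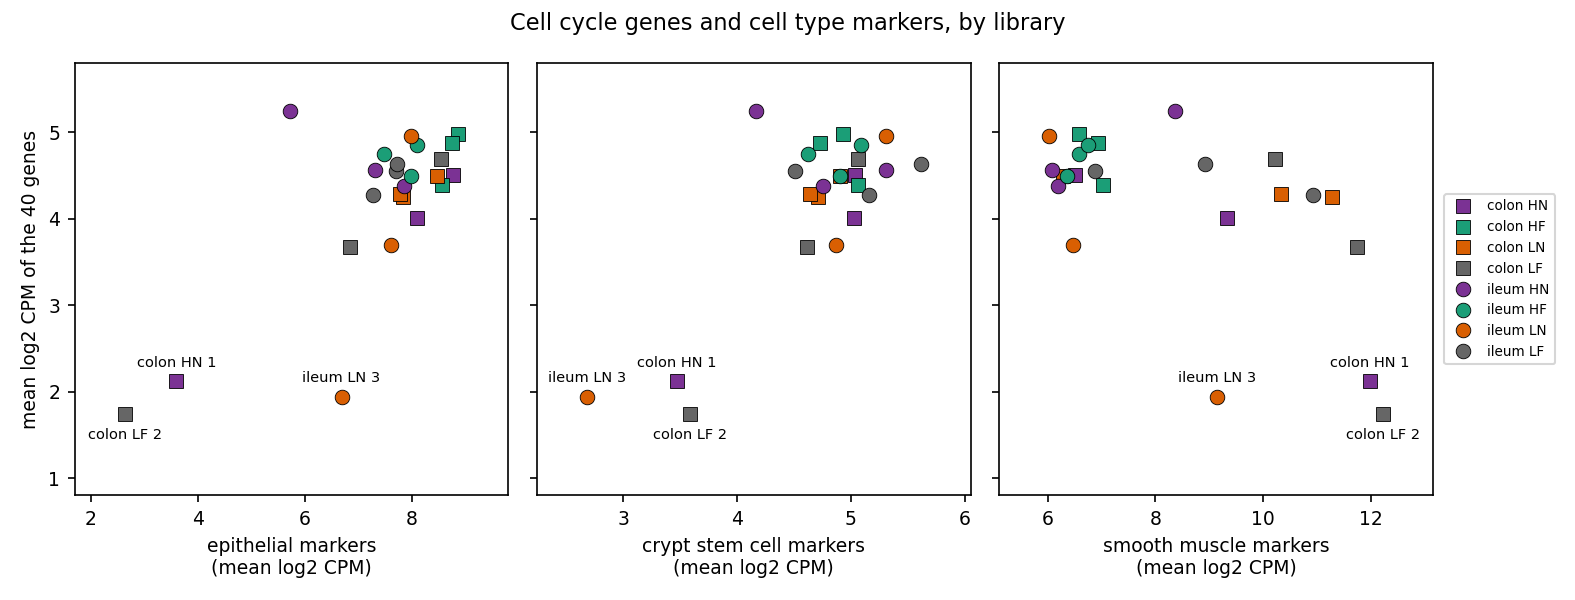
Mean log2 CPM of the 40 cell cycle genes (vertical axis) against the mean log2 CPM of epithelial, crypt stem cell and smooth muscle markers (horizontal axes), 1 point per library, squares for colon and circles for ileum. Colon HN 1, colon LF 2 and ileum LN 3 lie below all other libraries on the vertical axis, and the colon pair has epithelial sums of 352 and 171 CPM.

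Per length of transcript (FPKM, the deposited length-scaled value), 5 of the 6 highest of the 40 genes in each tissue were replication genes. PCNA, the polymerase clamp, was highest, with a median of 65.4 FPKM over the 12 colon libraries and 79.5 over the 12 ileum libraries. TYMS, which makes thymidylate, followed at 31.5 FPKM in colon and 59.5 in ileum, and RRM1, MCM6, MCM7 and UBE2C, a ubiquitin-conjugating enzyme of the anaphase-promoting complex, made up the other places among the first 6. UBE2C was the highest mitosis gene, at 24.6 FPKM in colon and 31.9 in ileum. CENPE, a kinetochore motor protein, was the lowest of the 40 in both tissues, at 0.55 FPKM in colon and 0.48 in ileum. GINS2, CENPF, CCNE2 and CDC6 were also among the lowest 5 in both tissues, between 0.75 and 1.26 FPKM in colon and between 0.9996 and 1.39 in ileum. Within the ileum PCNA ran between 21.3 and 150 FPKM and MCM2 between 0.54 and 15.5. Genes next to each other in the FPKM order thus overlapped between libraries.

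**Figure D2:**
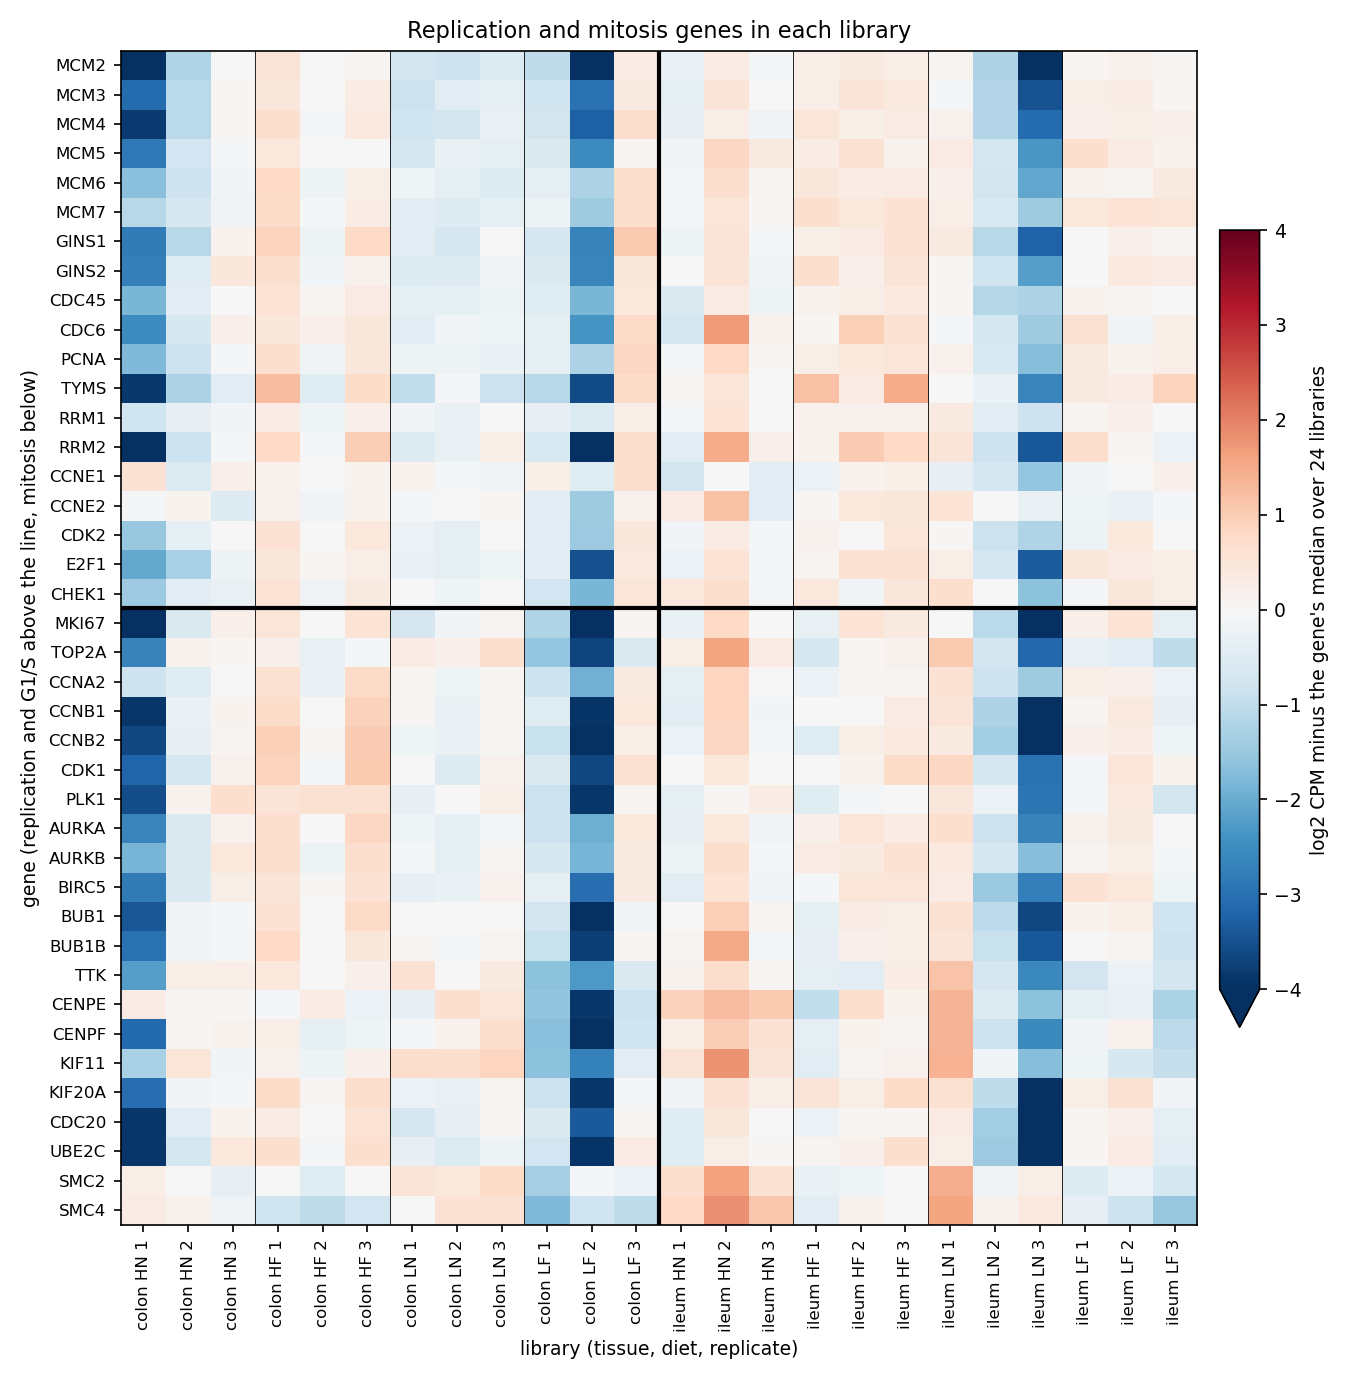
Each gene's log2 CPM in each of the 24 libraries, as the difference from that gene's median over all libraries (rows are genes, replication above the heavy line and mitosis below; columns are libraries, colon left and ileum right; the colour scale stops at −4, and lower values have the colour of −4). Colon HN 1, colon LF 2 and ileum LN 3 are blue in most rows, and SMC2 and SMC4 at the foot are within 1 of their medians there.

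Averaged over the 19 replication genes, the log2 CPM of the 3 libraries spread least in the LF ileum (4.90 to 4.91) and most in the LF colon (2.43 to 5.24). In the ileum it was 4.52 to 5.35 with HN, 5.01 to 5.20 with HF and 2.54 to 4.90 with LN. In the colon it was 2.53 to 4.66 with HN, 4.64 to 5.29 with HF and 4.30 to 4.49 with LN. The 21 mitosis genes averaged 4.25 to 5.16 in HN ileum, 4.03 to 4.54 in HF ileum, 1.39 to 5.01 in LN ileum and 3.70 to 4.37 in LF ileum. Their colon averages were 1.74 to 4.37 with HN, 4.16 to 4.70 with HF, 4.20 to 4.50 with LN and 1.12 to 4.19 with LF. For replication the 3 HF ileum averages lay above the 3 LN and the 3 LF ones, and the 3 HF colon averages above the 3 LN ones. For mitosis the 3 LN colon averages lay just above the 3 LF ones, the lowest LN at 4.20 and the highest LF at 4.19. All other pairs of diets overlapped within a tissue.

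**Figure D3:**
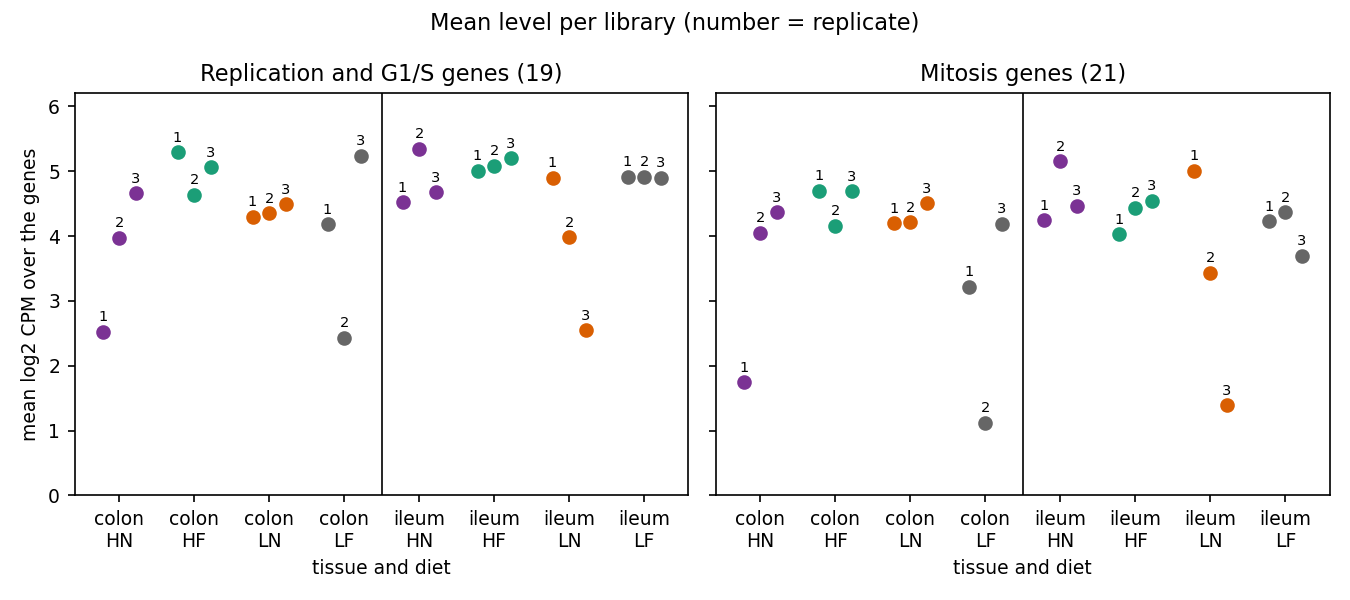
Mean log2 CPM of the 19 replication genes (left) and the 21 mitosis genes (right) in each library, by tissue and diet; points are libraries and the number is the replicate. The widest groups are those that hold ileum LN 3, colon HN 1 or colon LF 2, and the 3 LF ileum libraries lie between 4.90 and 4.91 for replication.

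The condensin genes SMC4 and SMC2 rose in the ileum with NCG, and no other member passed the test there. The comparison asks what NCG did at either fibre level (the average of HN minus HF and LN minus LF). SMC4 (gene 100152361, chromosome 13, 100078149 to 100120907, plus strand, Sscrofa11.1) had 32.1, 65.5 and 38.9 CPM with HN and 55.5, 20.2 and 23.8 CPM with LN, against 13.7, 20.2 and 18.2 CPM with HF and 14.5, 10.4 and 6.31 CPM with LF. Only the lowest LN library and the highest HF library met, at 20.2 CPM each. The log2 change was 1.50 ± 0.30 (SE; edgeR adjusted p = 0.0142).

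SMC2 (gene 100517138, chromosome 1, 245409559 to 245459032, plus strand), the partner of SMC4 in condensin, had 18.6, 36.0 and 17.7 CPM with HN and 32.2, 10.6 and 14.1 CPM with LN. Without NCG it had 9.62, 10.3 and 11.8 CPM with HF and 8.17, 9.97 and 7.14 CPM with LF. The 2 highest values, in HN 2 and LN 1, were each over 30 CPM, and LN 2 lay within the range of the HF libraries. SMC2 rose by 1.14 ± 0.29 on the log2 scale (edgeR adjusted p = 0.0418). Over all genes tested in this comparison 5.85% passed, 5.42% higher and 0.430% lower, so the 2 of 40 members called higher were close to the background. The call of SMC4 was lost in the fit without HF 1 (adjusted p = 0.0523) and kept without HN 2, HF 2 and LF 1 (0.0460). That of SMC2 was lost without any of 9 single libraries (HN 1, HN 2, HF 1, HF 2, HF 3, LN 1, LF 1, LF 2 or LF 3), at an adjusted p of at most 0.120, and at 0.180 without HN 2, HF 2 and LF 1 together.

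**Figure D4:**
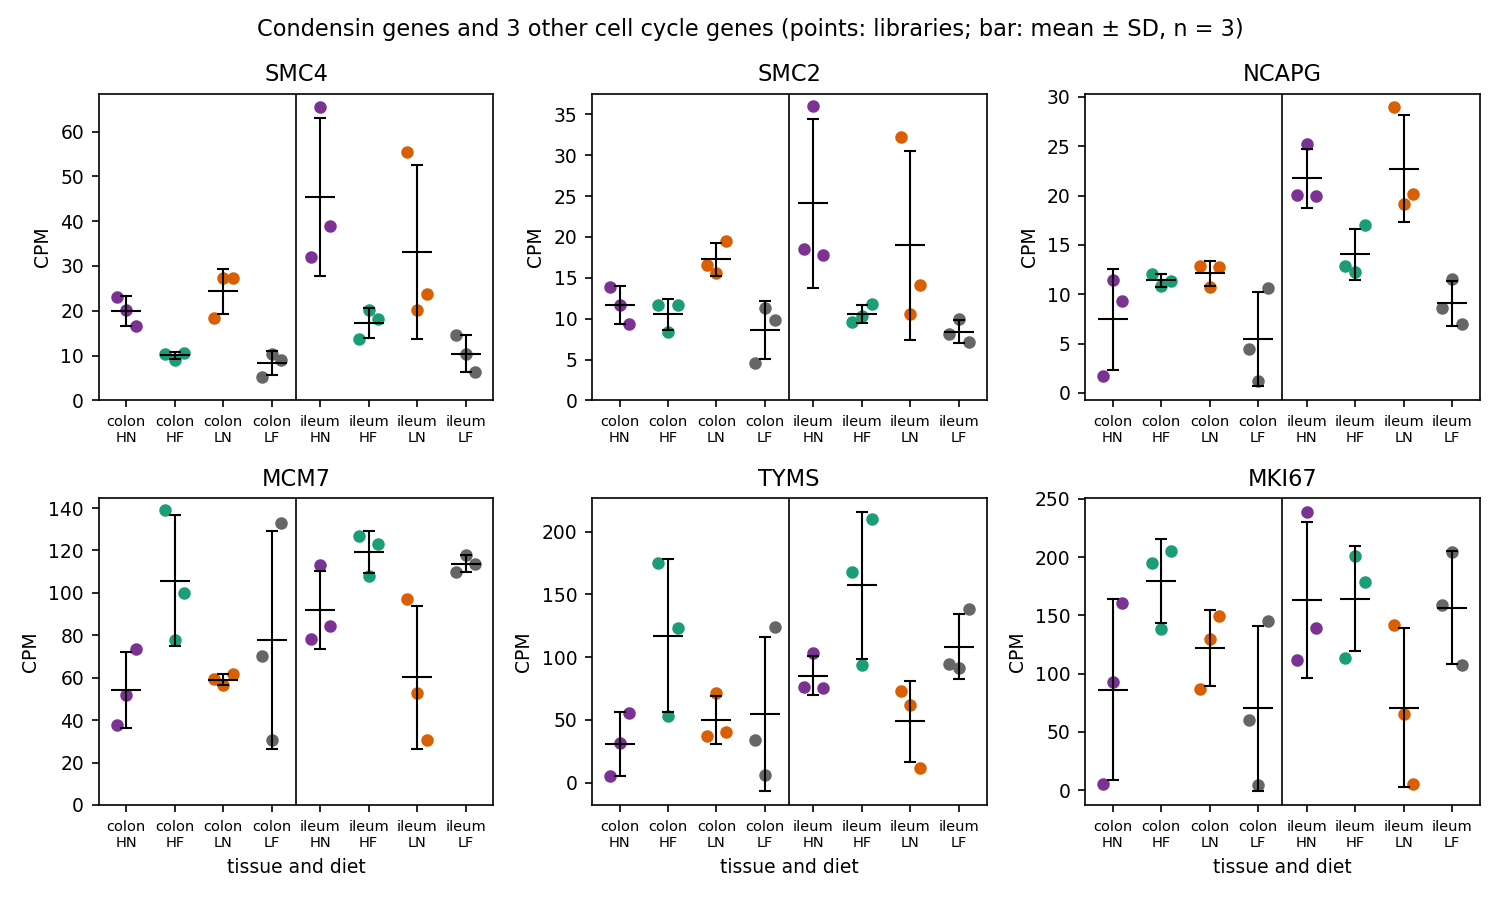
CPM of SMC4, SMC2, NCAPG, MCM7, TYMS and MKI67 in every library by tissue and diet (points are libraries; horizontal bars and whiskers are the mean ± SD, n = 3). The mean of SMC4 lies higher in the HN and LN groups than in the HF and LF groups of each tissue, and MKI67 is at 5.52, 4.70 and 5.69 CPM in colon HN 1, colon LF 2 and ileum LN 3.

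The replication genes leaned the other way in the ileum with NCG, without a call. Of 19, 18 had a negative log2 change, with a median of −0.59, beside a median of −0.07 over all 15103 genes tested. MCM7, a subunit of the helicase, had 78.5, 113 and 84.6 CPM with HN and 97.0, 52.8 and 30.5 CPM with LN, against 127, 108 and 123 CPM with HF and 110, 118 and 113 CPM with LF. Only HN 2 reached the range of the libraries without NCG, and the log2 change was −0.68 ± 0.23 (adjusted p = 0.130). TYMS had 76.6, 103 and 75.7 CPM with HN and 72.9, 61.6 and 11.8 CPM with LN, against 168, 94.1 and 210 CPM with HF and 94.9, 91.5 and 138 CPM with LF. HN 2 alone overlapped the libraries without NCG, and the change was −1.06 ± 0.38 (adjusted p = 0.147). CCNE1, cyclin E1, which activates CDK2, had a change of −0.64 ± 0.24 (adjusted p = 0.156), with a mean of 5.65 CPM over the NCG libraries and 8.50 CPM over the others. Without LN 3 the replication median was −0.33 with 17 of 19 negative, and without HN 2, HF 2 and LF 1 it was −0.68. Without LN 1, 4 members passed as lower, MCM7 among them (−0.94, adjusted p = 0.0125).

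The replication genes with less separation were spread mainly by LN 3. MCM2 had 34.6, 52.3 and 40.7 CPM with HN and 45.6, 17.5 and 2.26 CPM with LN, against 49.98, 53.3 and 50.2 CPM with HF and 44.0, 47.1 and 43.3 CPM with LF. PCNA had 80.8, 143 and 84.8 CPM with HN and 93.5, 54.2 and 25.3 CPM with LN, against 97.2, 111 and 115 CPM with HF and 107, 91.5 and 101 CPM with LF. Both were lowest in LN 3 and next lowest in LN 2. HN 1 and HN 3 lay below all 6 libraries without NCG for both genes, while HN 2 was the highest ileum library for PCNA. RRM2, the small subunit of ribonucleotide reductase, had 31.0, 119 and 48.6 CPM with HN and 61.3, 23.7 and 3.95 CPM with LN, against 46.6, 86.2 and 73.9 CPM with HF and 69.0, 44.8 and 35.9 CPM with LF. Its highest library was HN 2, and its groups overlapped. The changes of these genes were −0.69 ± 0.48 for MCM2, −0.46 ± 0.27 for PCNA and −0.44 ± 0.53 for RRM2 (adjusted p = 0.447, 0.354 and 0.682).

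The mitosis genes divided in the ileum with NCG, 8 positive and 13 negative with a median of −0.09, and the median was 0.08 without LN 3 and −0.20 without HN 2, HF 2 and LF 1. Without LN 1 it was −0.75. KIF11, the motor that pushes the spindle poles apart, came next after the called condensin genes, with a change of 0.98 ± 0.45 (adjusted p = 0.236). TOP2A, which untangles sister DNA, had 58.9, 148 and 61.7 CPM with HN and 102, 29.8 and 5.50 CPM with LN, against 31.8, 52.1 and 56.1 CPM with HF and 40.6, 37.1 and 24.4 CPM with LF. All 3 HN libraries were above all 6 libraries without NCG, and LN held both the second highest and the lowest value (change 0.65 ± 0.53, adjusted p = 0.523). MKI67, the coat protein of mitotic chromosomes used as a mark of cycling cells, had 112, 239 and 139 CPM with HN and 141, 65.2 and 5.69 CPM with LN, against 114, 201 and 179 CPM with HF and 159, 204 and 107 CPM with LF. Its groups overlapped (−0.61 ± 0.54, adjusted p = 0.560).

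CCNB1, cyclin B1, had 20.4, 49.2 and 25.2 CPM with HN and 39.1, 11.5 and 0.971 CPM with LN, against 26.8, 27.8 and 34.1 CPM with HF and 29.5, 35.8 and 21.7 CPM with LF. CDK1, its kinase, had 25.6, 34.96 and 25.5 CPM with HN and 46.2, 15.9 and 3.17 CPM with LN, against 26.2, 28.4 and 43.7 CPM with HF and 24.8, 36.3 and 28.8 CPM with LF. For both genes LN held values below and above those of LF, and the groups overlapped (−0.37 ± 0.59 and −0.36 ± 0.46, adjusted p = 0.765 and 0.702). Of the markers in this comparison, 13 of 14 tested adipocyte markers were positive (median 1.19) and 13 of 15 epithelial markers were negative (median −0.36), with none called in either list. Smooth muscle markers were negative for 14 of 15 (median −0.73) and germinal centre and B cell markers for 12 of 14 (median −0.52), again with none called. Summed adipocyte markers were 383 to 798 CPM with HN and 820 to 7364 CPM with LN, against 593 to 775 CPM with HF and 741 to 909 CPM with LF, and ADIPOQ was at 0 in HF 3. Their part in the result was not tested.

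Against LF alone, SMC4 rose in HN ileum by 2.09 ± 0.43 on the log2 scale (edgeR adjusted p = 0.0404), the only member of 40 to pass, where 1.88% of all genes did, 1.87% higher and 0.00662% lower. This call was lost without any 1 library of HN, HF or LF, in 9 of 12 omissions, and without HN 2, HF 2 and LF 1 together (adjusted p = 0.150). SMC2 (1.47 ± 0.41, adjusted p = 0.114) and KIF11 (1.59 ± 0.64, adjusted p = 0.323) came next. The medians were −0.07 for replication and 0.09 for mitosis, and without those 3 libraries they were −0.30 and −0.15, the mitosis median with the opposite sign. In LN against LF no member passed, where 4.34% of all genes did (4.24% higher and 0.106% lower) and 2925 of 15103 had an unadjusted p under 0.05. SMC4 there had 1.69 ± 0.43 (adjusted p = 0.0544), SMC2 1.18 ± 0.40 (0.145), MCM7 −0.92 ± 0.33 (0.166), CCNE1 −0.81 ± 0.34 (0.226) and BIRC5, the survivin subunit of the chromosomal passenger complex, −1.10 ± 0.61 (0.348). The medians were −0.82 for replication and −0.46 for mitosis, and without LN 3 they were −0.50 and 0.05. SMC4 passed in LN against LF by DESeq2 (adjusted p = 0.00489), without HN 2 (0.0482) and without LN 2 (0.0404). Without LN 1, 5 members passed as lower, MCM7 (−1.44, 0.0207), CDC45 (−1.27, 0.0266) and BIRC5 (−2.31, 0.0248) among them. These comparisons share the LF libraries with each other.

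In the colon with NCG no member passed, and neither did any of the 15075 genes tested (0%), although 1863 had an unadjusted p under 0.05. SMC4 had 23.1, 20.2 and 16.5 CPM with HN and 18.5, 27.2 and 27.3 CPM with LN, against 10.4, 9.09 and 10.7 CPM with HF and 5.25, 10.4 and 9.08 CPM with LF. All 6 NCG libraries were above all 6 others, and HN 1 and LF 2, which stood apart in other genes, were each the highest of their diet for this gene. The log2 change was 1.29 ± 0.20 (unadjusted p = 6.82e-05, edgeR adjusted p = 0.182). SMC4 was called in the fits without colon LF 2 (1.38, adjusted p = 0.0203) and without colon HN 1 and colon LF 2 (1.32, adjusted p = 0.0148), and by DESeq2 (1.26, adjusted p = 1.73e-06).

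SMC2 had 13.9, 11.7 and 9.32 CPM in HN colon and 16.6, 15.6 and 19.5 CPM in LN colon, against 11.6, 8.33 and 11.6 CPM in HF colon and 4.58, 11.3 and 9.84 CPM in LF colon. The 3 LN values were the highest, HN overlapped HF, and the change was 0.59 ± 0.23 (adjusted p = 0.341). CENPE had a change of 1.11 ± 0.44 (adjusted p = 0.345). For the 21 mitosis genes the median change was −0.11, with 8 positive and 13 negative, and it was positive without HN 1 (0.15) or without LF 3 (0.27).

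Of the 19 replication genes 18 were negative in the colon with NCG, with a median of −0.53 beside 0.06 over all genes. The smallest p-values belonged to MCM7 (−0.66 ± 0.32, adjusted p = 0.421), MCM6 (−0.65 ± 0.35, 0.469) and PCNA (−0.63 ± 0.36, 0.498). PCNA had 24.3, 46.1 and 79.4 CPM with HN and 71.2, 71.3 and 68.9 CPM with LN, against 129, 74.5 and 114 CPM with HF and 63.6, 35.03 and 147 CPM with LF. TYMS had 4.99, 31.2 and 55.7 CPM with HN and 37.1, 71.7 and 40.5 CPM with LN, against 175, 53.0 and 124 CPM with HF and 34.2, 6.11 and 124 CPM with LF. The 3 highest values of each gene were in HF and LF libraries, and the lowest were in colon HN 1 and colon LF 2. Without both of those libraries the replication median was −0.56, and all 19 genes were negative. Left out singly, libraries moved it further: it was −0.32 without HN 1, −0.79 without LF 2, −0.84 without HN 3 and −0.10 without LF 3.

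Other replication genes of the colon had the same lowest libraries. MCM2 had 2.53, 18.2 and 42.0 CPM with HN and 25.1, 23.4 and 28.3 CPM with LN, against 60.0, 41.6 and 44.6 CPM with HF and 20.8, 2.42 and 52.7 CPM with LF. RRM2 had 2.33, 23.7 and 40.6 CPM with HN and 30.1, 34.96 and 51.7 CPM with LN, against 74.7, 40.6 and 84.5 CPM with HF and 27.9, 2.28 and 66.1 CPM with LF. Both genes had their 3 highest values in HF 1, HF 3 and LF 3 and their 2 lowest in HN 1 and LF 2. The changes with NCG were −0.59 ± 0.68 for MCM2 and −0.64 ± 0.72 for RRM2 (adjusted p = 0.762 and 0.755).

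Among the mitosis genes of the colon, MKI67 had 5.52, 92.5 and 160 CPM with HN and 86.6, 130 and 150 CPM with LN, against 195, 138 and 205 CPM with HF and 60.3, 4.70 and 145 CPM with LF. TOP2A had 7.58, 54.8 and 52.2 CPM with HN and 62.8, 57.2 and 76.7 CPM with LN, against 57.2, 39.997 and 47.0 CPM with HF and 16.7, 3.69 and 33.4 CPM with LF. MKI67 was highest in 2 HF libraries, whereas all 3 LN values of TOP2A were above all 3 LF values. CCNB1 had 1.73, 22.8 and 30.1 CPM with HN and 28.1, 22.6 and 29.2 CPM with LN, against 45.8, 26.9 and 52.3 CPM with HF and 19.5, 1.68 and 36.4 CPM with LF. CDK1 had 2.73, 16.0 and 29.3 CPM with HN and 25.6, 18.1 and 29.5 CPM with LN, against 48.3, 25.2 and 53.9 CPM with HF and 17.4, 1.95 and 39.3 CPM with LF. Both were highest in HF 1 and HF 3 and lowest in HN 1 and LF 2. The changes with NCG were −0.11 ± 0.76 for MKI67, 0.79 ± 0.53 for TOP2A, −0.35 ± 0.68 for CCNB1 and −0.53 ± 0.64 for CDK1 (adjusted p = 0.967, 0.567, 0.881 and 0.779). In this comparison 14 of 15 smooth muscle markers (median 1.36), 13 of 14 germinal centre and B cell markers (median 0.76) and 13 of 13 T and NK cell markers (median 0.68) were positive, and 13 of 14 adipocyte markers were negative (median −0.75), with none called. Their part was not tested.

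**Figure D5:**
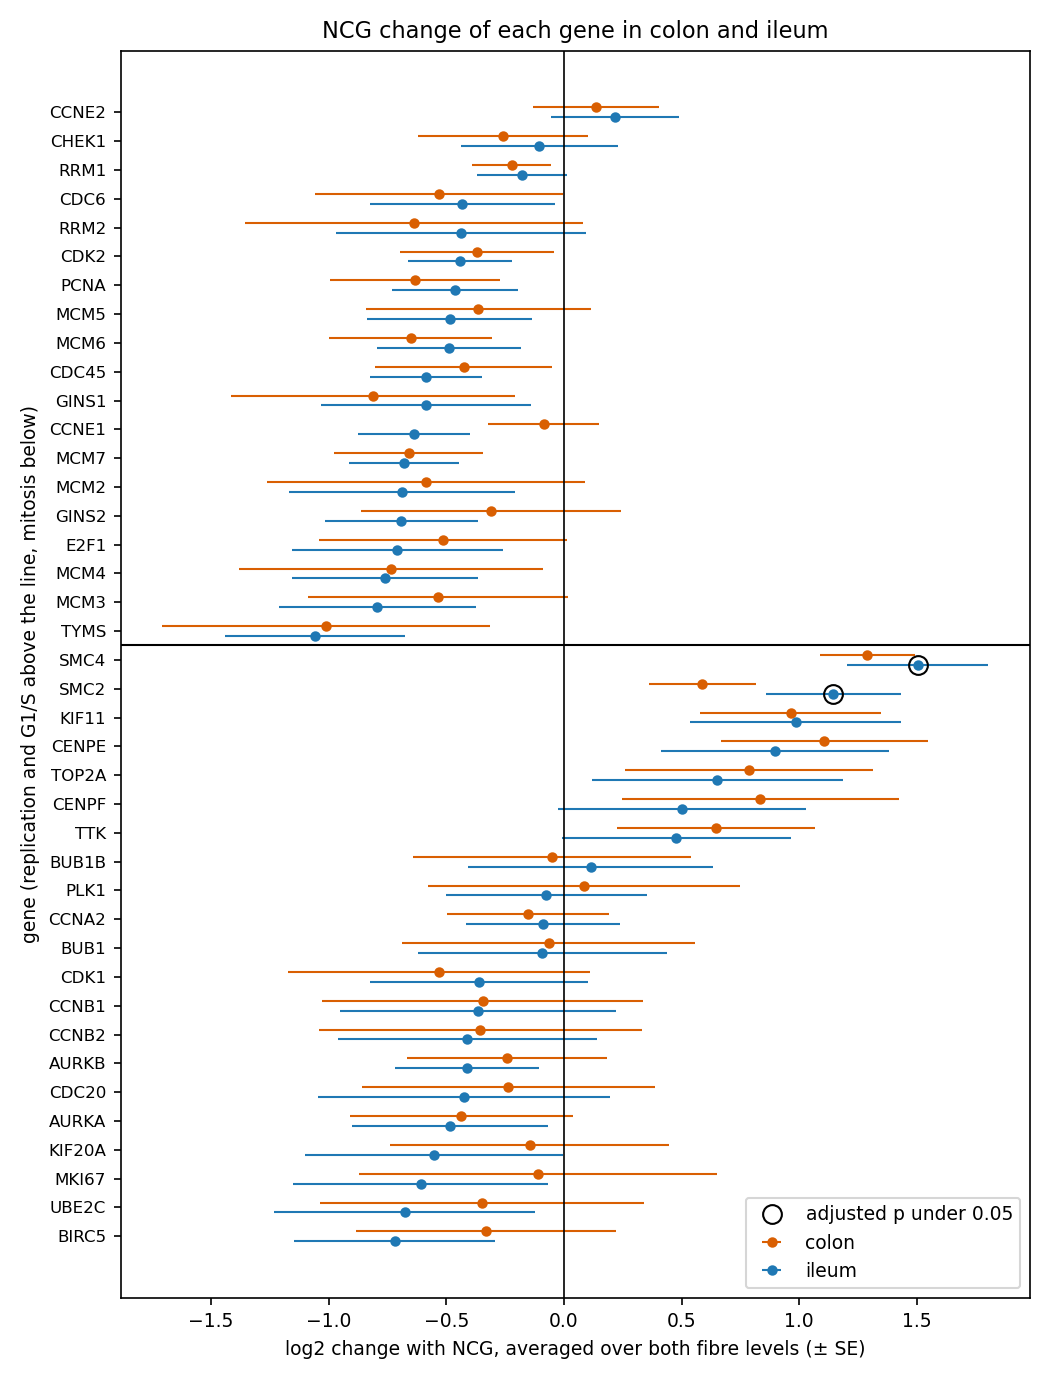
Log2 change with NCG of each gene in colon and in ileum (horizontal axis; whiskers are ± SE; genes down the page, replication above the line and mitosis below; rings mark an adjusted p under 0.05). Replication genes other than CCNE2 lie left of 0 in both tissues, and SMC4, SMC2, KIF11, CENPE, TOP2A, CENPF and TTK lie right of 0 in both.

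The sign of the NCG change was the same in both tissues for 38 of 40 members, 8 positive and 30 negative, and for 67.9% of the 14634 genes tested in both. The 2 with opposite signs were BUB1B (−0.05 in colon and 0.11 in ileum) and PLK1 (0.08 and −0.08). The 8 that were positive in both tissues were CCNE2, TOP2A, TTK, CENPE, CENPF, KIF11, SMC2 and SMC4. They code for cyclin E2, a topoisomerase, a checkpoint kinase, a kinetochore motor, another kinetochore protein, a spindle motor and both condensin ATPases. KIF11 had 0.96 ± 0.39 in colon and 0.98 ± 0.45 in ileum, CENPE 1.11 ± 0.44 and 0.90 ± 0.48, CENPF 0.83 ± 0.59 and 0.50 ± 0.53, and TTK 0.65 ± 0.42 and 0.48 ± 0.49, none past the test. These 8 genes had longer transcripts, with a median gene length in the table of 5776 bases (4297 to 10201), beside 2950 bases (840 to 11563) for the 30 that were negative in both. With the trend of each library with gene length removed, SMC4 kept the call in the ileum (1.29, adjusted p = 0.0359) and SMC2 did not (1.02, adjusted p = 0.0755). The difference of the NCG change between the tissues (colon minus ileum) passed for no member and for 0% of 15675 genes, with 469 with unadjusted p under 0.05, and was −0.26 ± 0.38 for SMC4 and −0.60 ± 0.38 for SMC2.

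The average of the replication genes minus that of the mitosis genes, in log2 CPM, gives the balance of the groups within a library. In the colon it was −0.08 to 0.78 (median 0.12) in the 6 libraries with NCG and 0.37 to 1.31 (median 0.78) in the 6 without. In the ileum it was −0.11 to 1.16 (median 0.24) with NCG and 0.54 to 1.20 (median 0.67) without. The groups overlapped in the colon through HN 1, and in the ileum through LN 3 and LN 2. Without the libraries that stood apart the ranges were −0.08 to 0.29 with NCG and 0.37 to 1.05 without in colon, and −0.11 to 0.55 with NCG and 0.54 to 1.20 without in ileum, where LN 2 (0.546) still lay above LF 2 (0.541).

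Condensin has further subunits, which were looked at after SMC2 and SMC4 had been seen. NCAPG rose in the ileum with NCG by 0.95 ± 0.17 on the log2 scale (edgeR adjusted p = 0.00889), with 20.0, 25.2 and 20.0 CPM with HN and 28.9, 19.1 and 20.1 CPM with LN, against 12.9, 12.3 and 17.04 CPM with HF and 8.64, 11.6 and 7.004 CPM with LF. All 6 NCG libraries were above the other 6. NCAPD2, NCAPH, NCAPD3, NCAPG2 and NCAPH2, the other subunits of condensin I and II measured, had negative changes between −0.27 and −0.47 with no call. In the colon NCAPG had 0.29 ± 0.51 (adjusted p = 0.865).

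Wider lists of the same machinery gave few calls in the ileum with NCG, where 5.42% of all genes were called higher and 0.430% lower. The shares called higher in the replication and mitosis lists were near that background. Of 53 further replication genes, 3 rose and none fell: ORC4 (1.22 ± 0.27, adjusted p = 0.0244) and ORC3 (0.52 ± 0.13, 0.0383), subunits of the origin recognition complex, and MCM8 (0.60 ± 0.15, 0.0473), a helicase used in DNA repair. The median of the list was −0.39, with 39 of 53 negative. Of 60 further mitosis genes, 3 rose and none fell: NCAPG, CENPK (1.18 ± 0.27, adjusted p = 0.0280), a kinetochore protein, and KIF20B (1.57 ± 0.39, 0.0396), a kinesin of cell division. Their median was −0.28, with 38 of 60 negative. Of 25 cell cycle brakes and G1 genes none rose and 2 fell, E2F4 (−0.51 ± 0.12, adjusted p = 0.0367), a repressor E2F, and CDK4 (−0.56 ± 0.14, 0.0421), the kinase of the D cyclins. In the colon no gene of these 3 lists passed with NCG, and SGO2, which guards centromere cohesion, had the smallest p (1.18 ± 0.21, adjusted p = 0.188).

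With more fibre no member passed in either tissue, and 0% of all genes did. In the ileum, where 794 of 15103 genes had an unadjusted p under 0.05, all 40 members had a positive log2 change (HF and HN over LF and LN). The medians were 0.45 for replication and 0.47 for mitosis, while 47.4% of all genes were positive with a median of −0.02. The members with the smallest p were CDC6 (0.82 ± 0.40), TYMS (0.65 ± 0.38) and PCNA (0.46 ± 0.27) for replication, and SMC4 (0.58 ± 0.30), CENPE (0.77 ± 0.48) and AURKB, a kinase of the chromosomal passenger complex (0.47 ± 0.31), each at an edgeR adjusted p of 0.802. Without LN 3, which is a low-fibre library, the medians were 0.28 and 0.24, and 38 of 40 were positive. Without LN 1, another low-fibre library, they were 0.82 and 1.14. In the same comparison 14 of 14 germinal centre and B cell markers (median 1.47) and 13 of 13 T and NK cell markers (median 0.75) were positive, and 15 of 15 smooth muscle markers were negative (median −1.93), as were 13 of 14 adipocyte markers (median −1.43), with none called. Summed adipocyte markers were 7364 CPM in LN 3 and 383 to 992 CPM in the other 11 ileum libraries. Summed germinal centre markers were 234 to 1717 CPM with HN and 220 to 937 CPM with HF, against 122 to 248 CPM with LN and 189 to 837 CPM with LF. Without HN 2, HF 2 and LF 1 the medians of the members were 0.32 for each role, with 40 of 40 positive.

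In the colon 37 of 40 members were positive with fibre, with medians of 0.15 (replication) and 0.33 (mitosis), and 692 of 15075 genes had an unadjusted p under 0.05. The members with the smallest p were CENPE (0.78 ± 0.44), TTK (0.52 ± 0.42) and PLK1 (0.64 ± 0.67), each at an adjusted p of 0.836, and CCNE2 (0.19 ± 0.27, adjusted p = 0.845). These medians rested on single libraries: they were −0.06 and 0.10 without LF 2, −0.16 and 0.14 without HN 3, 0.32 and 0.59 without HN 1, and 0.49 and 0.72 without LF 3. The replication median was thus negative without LF 2 or without HN 3. All 15 epithelial markers were positive (median 0.61), and all 15 smooth muscle markers were negative (median −2.30). The difference between the fibre effects of the tissues (colon minus ileum) passed for no member and 0% of genes (437 with unadjusted p under 0.05). It was negative for all 19 replication genes, with a median of −0.25, which was 0.11 without colon LF 3.

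Set singly against LF, the 3 other diets gave unlike medians in the colon. HF colon was higher than LF colon in 39 of 40 members, with medians of 0.68 for replication and 1.30 for mitosis, and no member passed (0% of genes, 3071 with unadjusted p under 0.05). CENPE had 1.75 ± 0.63 (adjusted p = 0.205), TTK 1.58 ± 0.61 (0.209) and KIF11 1.40 ± 0.55 (0.212). Without colon HN 1 and colon LF 2 the medians were 0.24 and 0.79. Summed smooth muscle markers were 2076 to 2930 CPM in HF colon, against 34305 to 127534 CPM in LF colon, without overlap, and their part was not tested. DESeq2 called CENPE (1.77, adjusted p = 0.0458). This gene was low, at 4.60, 5.86 and 3.99 CPM in HF colon against 1.51, 0.20 and 2.54 CPM in LF colon. The lowest of these values, in LF 2, was 3 counts. In LN colon against LF colon the replication median was 0.04 and the mitosis median 0.82, with all 21 mitosis genes positive. SMC4 (1.57 ± 0.29, adjusted p = 0.175), KIF11 (2.11 ± 0.56, 0.234) and CENPE (2.08 ± 0.64, 0.265) had the smallest p, and no member passed (0% of genes, 2010 with unadjusted p under 0.05). Without colon HN 1 and colon LF 2 these medians were −0.44 and 0.27, so the replication median turned negative, and SMC4 passed (1.76, adjusted p = 0.0325). In HN colon against LF colon the medians were −0.27 and 0.31, with SMC4 at 1.28 ± 0.28 (adjusted p = 0.389) and no member called by edgeR (0% of genes, 1348 with unadjusted p under 0.05). Those medians were 0.001 and 0.78 without HN 1, −0.81 and −0.24 without LF 2, −1.08 and −0.07 without HN 3, and 0.44 and 1.13 without LF 3, so neither kept its sign. Without LF 3 the medians of HF against LF were 1.44 and 2.11, and those of LN against LF 0.88 and 1.63.

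The interaction asks whether fibre acted differently with NCG than without it. In the colon it was negative for 39 of 40 members, with medians of −0.93 for replication and −1.72 for mitosis beside 0.03 over all genes, and no member passed (0% of genes, 2264 with unadjusted p under 0.05). KIF11 (−2.29 ± 0.77, adjusted p = 0.327), TTK (−2.13 ± 0.85, 0.327) and CENPE (−1.94 ± 0.87, 0.330) had the smallest p. Without colon HN 1 and colon LF 2 the medians were −0.17 and −0.89, and without colon LF 3 they were −1.81 and −2.64. In the ileum 36 of 40 members were positive, with medians of 0.59 and 0.43, and again none passed (0% of genes, 672 with unadjusted p under 0.05). Without LN 3 those medians were 0.11 and −0.10, the mitosis median with the opposite sign, and without LN 1 they were 1.22 and 1.80. In HF ileum against LF ileum 36 of 40 members were positive with medians of 0.18 and 0.26, none passed (0% of genes, 538 with unadjusted p under 0.05), and SMC4 had the smallest p (0.77 ± 0.42, adjusted p = 1).

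Between the tissues, SMC4 was the only member that differed over the 4 diets, lower in colon. It averaged 15.6 CPM over the 12 colon libraries and 26.6 CPM over the 12 ileum libraries, and fell by 0.69 ± 0.19 on the log2 scale (edgeR adjusted p = 0.0115). This was 1 of 40 members, where 28.4% of all genes passed, 12.5% higher and 15.9% lower in colon. The call was lost without ileum HN 2, HF 2 and LF 1 (−0.49, adjusted p = 0.0692). Of the 40 members 38 were lower in colon, with medians of −0.32 for replication and −0.23 for mitosis. Without colon HN 1, colon LF 2 and ileum LN 3 these were −0.21 and −0.09, and without ileum LN 1 they were −0.14 and 0.05. CCNE1, which was higher in colon, had the smallest p of the replication genes (0.38 ± 0.17, adjusted p = 0.0959; 9.01 CPM in colon and 7.07 CPM in ileum), followed by MCM5 (−0.60 ± 0.31, 0.164) and MCM7 (−0.38 ± 0.21, 0.184). It passed without colon HN 2 (0.45, adjusted p = 0.0490) and without colon LF 2 (0.47, 0.0400). MCM7 passed without colon LF 3 (−0.51, 0.0464) and MCM5 without the 3 libraries that stood apart (−0.45, 0.0419).

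Within single diets no member differed between colon and ileum, where 2.89% of genes passed with HN (1.27% higher and 1.62% lower in colon), 3.04% with HF, 4.31% with LN (3.31% lower) and 2.16% with LF (1.72% lower). The medians with HN were −0.97 for replication and −0.87 for mitosis, and with LF −0.55 and −0.75. With HF they were −0.05 and 0.13, and with LN, the diet that holds ileum LN 3, they were 0.29 and 0.39. Each diet with a library that stood apart moved with it: the medians were −0.49 and −0.30 for HN without colon HN 1, −0.06 and −0.25 for LF without colon LF 2, and −0.14 and −0.07 for LN without ileum LN 3. Without colon HN 3 the HN medians were −1.55 and −1.36, without colon LF 3 the LF medians −1.42 and −1.52, and without ileum LN 1 the LN medians 0.88 and 1.70. SMC4 was nearest to a call with HN (−1.19 ± 0.38, adjusted p = 0.102) and had −0.79 ± 0.38 with HF (0.355). Of the marker lists in the comparison over the 4 diets, where 12.5% of all genes were called higher in colon and 15.9% lower, 12 of 15 smooth muscle markers were higher in colon (median 2.12). Germinal centre and B cell markers were lower in colon for 5 of 14 (median −1.68), and T and NK cell markers for 3 of 13 (median −0.999). Crypt stem cell markers were higher for 2 and lower for 2 of 15, and epithelial markers for 1 and 1 of 15. Their part was not tested. In the wider lists and the same comparison HELLS (−0.82 ± 0.22, adjusted p = 0.00932), a chromatin remodeller, GMNN (−0.31 ± 0.10, 0.0312), the inhibitor of origin licensing, and NCAPG (−0.87 ± 0.28, 0.0267) were lower in colon. Of the 25 brakes and G1 genes 3 were higher and 3 lower, a share no larger than the 28.4% of all genes called, with BTG2 at −0.94 ± 0.21 (adjusted p = 0.00298), E2F5 at 1.20 ± 0.29 (0.00459), CDKN2D at 0.61 ± 0.16 (0.00786) and MYC at −0.44 ± 0.14 (0.0273).

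The span of 8 of the 40 members overlaps a gene on the opposite strand, and whether the counting used the strand is not given in the sources used here, so their counts are uncertain to that degree. SMC4 overlaps TRIM59, which had a median of 4.95 CPM over the 24 libraries and changed with NCG by 0.85 ± 0.30 in the ileum without a call (adjusted p = 0.136). MCM7 overlaps AP4M1 (−0.14 ± 0.15, adjusted p = 0.633), CCNE2 overlaps INTS8 (0.51 ± 0.15, 0.0892) and CCNA2 overlaps EXOSC9, which rose in the ileum with NCG (0.63 ± 0.15, 0.0374). SMC2 and KIF11 overlap no annotated gene.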

How the data were processed

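Poly(A) RNA from 12 ileum and 12 colon libraries was sequenced in read pairs, per the labels' protocols. Per the submitters' processing notes the tools were fastp 0.22.0, HISAT2 2.1.0 and HTSeq 0.9.1, and the build was Sscrofa11.1. The deposited table gives the authors' whole-number read count and FPKM per gene and library; the FPKM followed from the counts and the gene length in the table within a relative 2.10e-07. Strand use in counting is not given in the sources used here.

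From the counts, edgeR 4.0.16 (R 4.3.3) filtered low genes (filterByExpr), scaled by TMM and ran quasi-likelihood F-tests with Benjamini-Hochberg adjustment over all genes tested and a threshold of 0.05. The ileum fit (15103 genes) and the colon fit (15075) had 4 diet means each, and the fit for tissue comparisons (15675) had 8 group means. All 40 members passed the filter in each fit. There were 19 comparisons. CPM in the text are TMM-scaled over the 24 libraries, and log2 CPM have a prior count of 2. Between replicates the biological coefficient of variation (from edgeR's common dispersion) was 0.461 for ileum and 0.472 for colon, which limits what 3 libraries per group can show. The scripts were tested on simulated data.

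Alternatives were DESeq2 1.42.0, its size factors, limma 3.58.1 (voom), no filter, the replicate number as a block, omission of each library, and only the 6 libraries of a pairwise comparison. Named members were those past the threshold, the 3 with the smallest p of each role where fewer passed, and 8 shown in every library (MCM2, PCNA, TYMS, RRM2, MKI67, TOP2A, CCNB1 and CDK1); of each further list up to 4 called genes or the 2 with the smallest p. The members and all lists were chosen with earlier results of these data known.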

Additional observations from a re-analysis of the deposited data

How the results depend on the processing

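Of 40 members, the count called with NCG in the ileum (2) was 1 without the filter, with limma voom, with the replicate block and with the length trend removed, 1 without ileum HN 2, HF 2 and LF 1, and 0 to 5 when single libraries were left out. In LN against LF in the ileum (0) it was 1 with DESeq2 and 0 to 5 over the omissions. In HN against LF in the ileum (1) it was 2 with DESeq2, 0 with voom, the replicate block, the length trend removed, only the 6 libraries compared or without HN 2, HF 2 and LF 1, and 0 to 1 over the omissions. In the colon, NCG (0) gave 1 with DESeq2, 1 without HN 1 and LF 2, and 0 to 1 over the omissions. Among the colon diets set against LF (0 each), DESeq2 gave 1 for HF, 3 for LN and 1 for HN, and LN against LF gave 1 without HN 1 and LF 2. For colon against ileum (1) the count was 2 with DESeq2, 0 with the replicate block, 2 without ileum LN 3, colon HN 1 and colon LF 2, 0 without ileum HN 2, HF 2 and LF 1, and 1 to 3 over the omissions. Within diets (0) it was 1 with DESeq2 for HN and 1 with only the 6 libraries for HF. The cause was not tested. No other count changed under any setting run, and no direction of a called member reversed.

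The length trend and the fits without HN 1 and LF 2 of the colon, without ileum HN 2, HF 2 and LF 1, and without ileum LN 3 with those of the colon were added after seeing the data. Replicate numbers are in the labels, but nothing says that they pair libraries. The correlation of same-number deviations ran between −0.52 and 0.81, beside −0.83 and 0.81 for different numbers. Of 24 libraries, 10 correlated best with their own number among the 3 of their diet in the other tissue. Fits with the block are therefore given only here. Adjusted p for SMC4 with NCG in the ileum ran between 8.55e-05 and 0.0523 over 19 alternatives, and for SMC2 between 0.00268 and 0.180.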
